A study of Homo sapiens with 8 samples.

Results

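CDX1, CDX2, HNF4A, HNF4G, FOXA1, FOXA2, FOXA3 and VDR, 8 genes for transcription factors of the gut epithelium, were followed in cells given an shRNA against GATA6 and in their controls, in 2 human cancer lines; GATA6 is itself a transcription factor of gut endoderm. All probe sets carrying 1 of these gene symbols in the array's annotation were taken: 11 of 22277 probe sets, for 6 of the 8 genes. HNF4A and FOXA3 were not analysed here. Of the 11963 genes with a named probe set, 7696 were bright enough to test, among them 5 of the 6 (CDX1, CDX2, FOXA1, FOXA2 and VDR). The 8 Affymetrix arrays form 4 groups of 2: Caco-2 control, Caco-2 shRNA, HUG1N control and HUG1N shRNA. Caco-2 is a colorectal adenocarcinoma line, and HUG1N, which the labels also call HuG-1, derives from gastric cancer. Both were grown at 37 degrees in media recommended by the ATCC. The labels describe infection with the GATA6 shRNA and selection in puromycin in the same words for every sample, controls included, and leave unsaid how control cells were treated, which hairpin was used and whether infected cells were cloned. They also do not say whether the 2 arrays of a group come from separate cultures, so the p-values measure only the spread between these arrays.

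CDX1 and CDX2 are homeodomain factors that specify the intestinal epithelium and drive genes of the absorptive brush border and of goblet cells. HNF4A and HNF4G are nuclear receptors that maintain enterocyte and hepatocyte genes, many of them for lipid transport. FOXA1, FOXA2 and FOXA3 are forkhead pioneer factors that bind closed chromatin in endoderm, and VDR is the vitamin D receptor, a nuclear receptor that pairs with RXR and governs calcium uptake genes in the gut.

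The promoters of CDX2 and FOXA1 are shown because both genes fell in Caco-2 shRNA cells and their sequences were in the RefSeq promoter table used (build GRCh38.p14). Each window runs 5′ to 3′ on the gene's strand, from 250 bases before the transcription start to 50 after it. Capitals mark matches, on either strand, to the GATA forms AGATAA or TGATAA or AGATAG or TGATAG, or to the forkhead forms TGTTTAC or TGTTTGC or TATTTAC or TATTTGC. The CDX2 window is chr13:27969266-27969565 and the FOXA1 window is chr14:37595200-37595499, both on the minus strand.
CDX2: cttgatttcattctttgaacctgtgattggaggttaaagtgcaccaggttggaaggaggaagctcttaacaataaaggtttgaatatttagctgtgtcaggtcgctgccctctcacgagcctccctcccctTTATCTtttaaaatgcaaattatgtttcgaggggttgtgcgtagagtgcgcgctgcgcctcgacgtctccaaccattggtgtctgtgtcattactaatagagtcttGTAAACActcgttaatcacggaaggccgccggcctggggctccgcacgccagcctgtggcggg
FOXA1: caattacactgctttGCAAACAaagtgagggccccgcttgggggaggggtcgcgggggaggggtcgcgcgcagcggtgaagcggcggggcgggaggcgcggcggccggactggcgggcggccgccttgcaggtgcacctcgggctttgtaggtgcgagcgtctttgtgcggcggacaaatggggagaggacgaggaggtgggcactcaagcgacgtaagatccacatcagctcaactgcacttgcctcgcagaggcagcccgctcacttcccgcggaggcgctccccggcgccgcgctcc
The CDX2 window (50.3% G or C) holds 1 GATA form at position -119 and 1 forkhead form at -13, counted from the start site. The FOXA1 window (69.3% G or C) holds no GATA form and 1 forkhead form at -235. Of all 35116 RefSeq promoters of this length, 25% hold a GATA form and 12.1% a forkhead form. The CDX form TTTATG, present in 10.6% of promoters, is in neither window. Such matches describe letters and are not evidence of binding.

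Values are GCRMA log2 intensities, with array medians of 4.73 to 4.98 and a floor of 2.08. Across the 7696 tested genes the correlation was 0.995 to 0.997 within a group, 0.962 to 0.966 for control against shRNA in 1 line, and 0.697 to 0.745 for Caco-2 against HUG1N. The targeted gene, GATA6, fell by 0.42 on the log2 scale in Caco-2 (from 12.54 to 12.12; SE 0.10, limma adjusted p = 0.0224), and its difference in HUG1N was -0.25 (from 12.50 to 12.24; SE 0.10, limma adjusted p = 0.0879). Both differences run in the direction of the labels, and the HUG1N one did not pass the test. The ACTB 3′ minus 5′ gap, a measure of RNA integrity, was 1.91 to 1.94 for Caco-2 controls and 1.46 to 1.65 for their shRNA arrays, and 2.35 to 2.68 for HUG1N controls and 3.69 to 3.77 for their shRNA arrays. The mean of the BioB, BioC, BioD and Cre hybridisation controls was 10.9 in HUG1N shRNA arrays and 12.4 to 12.8 in the means of the other groups. The ACTB gap moved with the shRNA comparison in each line, and the hybridisation controls did so in HUG1N, the Caco-2 ranges overlapping (12.45 to 12.62 and 12.3 to 12.5). The part of these measures in the results below was not tested. Of 12 epithelial and intestinal markers with a probe set, 10 or 11 were over log2 4 in at least 1 array of each group. Of 10 gastric markers, 3 were so in Caco-2 groups, and 7 (control) or 6 (shRNA) in HUG1N, with GKN1, LIPF and SOX2 under log2 4 in both lines. Of 14 fibroblast markers 1 to 3 were over log2 4 in a group, of 13 immune markers 1 or 2, and of 7 endothelial markers 1 (PECAM1) in Caco-2 and 0 in HUG1N. COL1A2, COL3A1, DCN, PDGFRB, PTPRC, CD3D, CDH5 and VWF were under log2 4 in all groups. Some markers did move with the shRNA. The log2 of the summed gastric markers was 11.89 to 11.97 in Caco-2 control and 8.58 to 8.79 in shRNA arrays (TFF2 -4.22, TFF1 -3.20). In HUG1N the gastric sum was 15.14 to 15.23 against 14.47 to 14.72. The epithelial and intestinal sum was 16.66 to 16.68 against 17.36 to 17.4 in Caco-2, and 16.73 to 16.76 against 17.27 to 17.28 in HUG1N. In Caco-2 the log2 of the summed fibroblast markers was 8.54 to 8.62 in control and 9.50 to 9.62 in shRNA arrays, with LUM at least 11.6-fold higher. The immune sum there was 9.43 to 9.82 against 7.85 to 7.98 (LYZ -1.96), and the endothelial sum 5.88 to 6.15 against 5.31 to 5.71 (PECAM1 -0.99). In HUG1N the fibroblast sum was 7.26 to 7.49 against 6.43 to 6.5, with ACTA2 at least 4.85-fold lower, and the immune sum 12.4 to 12.46 against 12.92 to 13.08 (LYZ 0.57). LUM and ACTA2 were bright enough to test through 1 group alone, Caco-2 shRNA and HUG1N control respectively, which fixed their direction. The part of the moving markers in the results was not tested.

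In Caco-2 cells, CDX2 and FOXA1 fell with the shRNA and VDR rose, whereas in HUG1N cells CDX1, FOXA2 and VDR fell and FOXA1 rose. A gene was called where its limma p, adjusted over all 7696 genes by Benjamini-Hochberg, was under 0.05. Of the 5 tested genes, 3 were called in Caco-2 (1 higher and 2 lower), against 38.7% of all genes (19.5% higher and 19.2% lower). In HUG1N 4 of 5 were called (1 higher and 3 lower), against 48.7% of all genes (24.7% higher and 23.9% lower). With so many genes called, these counts alone do not set the 5 genes apart. The median change over the 5 was -0.19 in Caco-2 and -0.37 in HUG1N, beside -0.00304 and 0 over all tested genes, with CDX1 in Caco-2 and CDX2 in HUG1N at background. In a bulk RNA sample, fewer cells expressing a gene and less RNA per cell cannot be told apart.

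**Figure D1:**
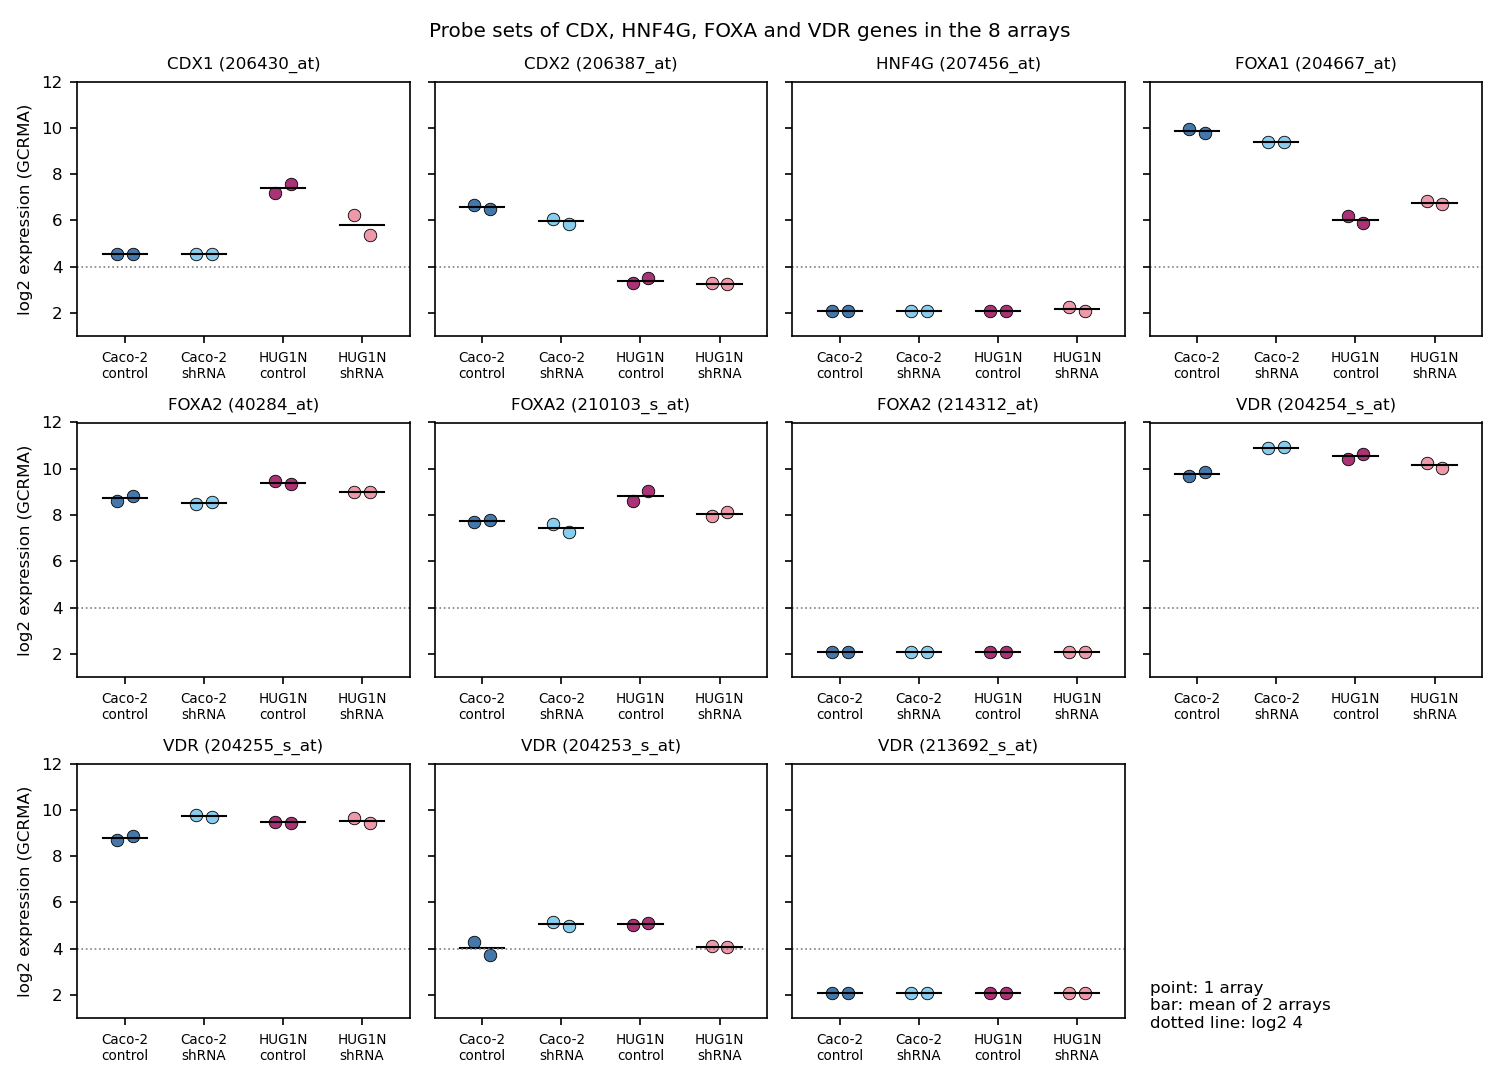
Log2 GCRMA expression (vertical axis) of the 11 probe sets of CDX1, CDX2, HNF4G, FOXA1, FOXA2 and VDR in the 4 groups; each point is 1 array, each bar the mean of 2 arrays, and the dotted line is log2 4. CDX1 lies at 4.53 in all 4 Caco-2 arrays, FOXA1 is above 9 in Caco-2 and below 7 in HUG1N, and HNF4G stays near 2.08.

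CDX1 was above its probe set's lowest value only in HUG1N. In HUG1N control arrays its log2 values were 7.18 and 7.58, and in HUG1N shRNA arrays 6.23 and 5.37. In all 4 Caco-2 arrays it was 4.53, a value repeated to within 1e-06 that is the lowest this probe set takes, so that Caco-2 cells give only an upper limit. The HUG1N groups did not overlap: the control mean was 7.38 ± 0.28 and the shRNA mean 5.80 ± 0.61 (SD, n = 2). CDX1 fell by 1.59 on the log2 scale (SE 0.28, 95% CI -2.26 to -0.91, limma adjusted p = 0.00457), a level 0.333 times that of the control. The 4 Caco-2 arrays with no spread lower the shared error of this gene, and with HUG1N fitted alone the limma adjusted p was 0.0503. Between the control groups CDX1 was at least 7.21-fold higher in HUG1N than the Caco-2 limit (limma adjusted p = 1.05e-04).

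CDX2 showed the opposite distribution between the lines. In Caco-2 its log2 values were 6.67 and 6.48 in control arrays and 6.07 and 5.84 with the shRNA, with every shRNA array below both controls. In HUG1N the values were 3.29 and 3.50 in control and 3.29 and 3.27 in shRNA arrays, all under log2 4. CDX2 fell by 0.62 in Caco-2 (means 6.57 ± 0.13 and 5.96 ± 0.16, SD, n = 2; SE 0.12, 95% CI -0.91 to -0.33, limma adjusted p = 0.00908), to 0.653 times the control level. Without Caco-2 control replicate 1 the change was -0.53 and the limma adjusted p 0.0552. The HUG1N difference was -0.12 (95% CI -0.41 to 0.17, limma adjusted p = 0.455), with overlapping groups and values too low for a fold. Between controls CDX2 was at least 5.96-fold higher in Caco-2, set against a limit of log2 4 (limma adjusted p = 1.41e-06).

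FOXA1 moved in opposite directions in the 2 lines. In Caco-2 its log2 values were 9.97 and 9.79 in control and 9.39 and 9.37 in shRNA arrays. In HUG1N they were 6.18 and 5.90 in control and 6.83 and 6.71 in shRNA arrays. Neither line's groups overlapped, shRNA being the lower in Caco-2 and the higher in HUG1N. FOXA1 fell by 0.50 in Caco-2 (means 9.88 ± 0.12 and 9.38 ± 0.01, SD, n = 2; SE 0.12, 95% CI -0.78 to -0.22, limma adjusted p = 0.0176). It rose 1.66-fold in HUG1N (means 6.04 ± 0.20 and 6.77 ± 0.08, SD, n = 2; log2 change 0.73, SE 0.12, 95% CI 0.45 to 1.01, limma adjusted p = 0.00321). The Caco-2 call was lost with no filter on low values (limma adjusted p = 0.0527) and without Caco-2 control replicate 1, shRNA replicate 1 or shRNA replicate 2 (limma adjusted p = 0.0947, 0.0707 and 0.0728), with changes of -0.41, -0.51 and -0.49. The difference between the lines, HUG1N minus Caco-2, was 1.23 (SE 0.16, 95% CI 0.83 to 1.63, limma adjusted p = 0.00216). In control cells FOXA1 was 14.3-fold higher in Caco-2 than in HUG1N (log2 difference -3.84, HUG1N minus Caco-2, 95% CI -4.12 to -3.56, limma adjusted p = 5.92e-07).

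FOXA2 was present in both lines and fell with the shRNA in HUG1N. Its brightest probe set, 40284_at, read 8.62 and 8.82 in control arrays of Caco-2, 8.49 and 8.58 with the shRNA, 9.45 and 9.36 in control arrays of HUG1N, and 9.0 and 8.99 with the shRNA. The shRNA arrays were below both controls in each line. FOXA2 fell by 0.41 in HUG1N (SE 0.09, 95% CI -0.63 to -0.19, limma adjusted p = 0.0112), a call lost without HUG1N control replicate 1 (change -0.36, limma adjusted p = 0.0565). In Caco-2 the change of -0.19 did not pass (SE 0.09, 95% CI -0.41 to 0.03, limma adjusted p = 0.152), and the difference between lines, -0.22, did not either (95% CI -0.53 to 0.09, limma adjusted p = 0.203). The probe set 210103_s_at read 7.72 and 7.79, then 7.64 and 7.29 in Caco-2 control and shRNA arrays, and 8.60 and 9.04, then 7.95 and 8.15 in those of HUG1N. It changed by -0.77 in HUG1N (SE 0.18, limma adjusted p = 0.0156 over 12758 probe sets) and by -0.29 in Caco-2 (SE 0.18, limma adjusted p = 0.27), so both probe sets point the same way. The third, 214312_at, was at 2.08 in all 8 arrays. Between controls FOXA2 was 1.61-fold higher in HUG1N (log2 difference 0.68, SE 0.09, limma adjusted p = 4.91e-04).

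HNF4G, the only HNF4 receptor gene measured here, was at 2.08 in 7 arrays and at 2.25 in HUG1N shRNA replicate 1. It was not tested, and at this signal no difference between groups could be seen.

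VDR rose in Caco-2 and, by 2 of 3 probe sets, fell in HUG1N. The brightest probe set, 204254_s_at, read 9.71 and 9.87 in the Caco-2 controls and 10.88 and 10.94 with the shRNA. In HUG1N it read 10.44 and 10.64 in control and 10.27 and 10.05 in shRNA arrays. The groups did not overlap in either line. VDR rose 2.17-fold in Caco-2 (means 9.79 ± 0.11 and 10.91 ± 0.04, SD, n = 2; log2 change 1.12, SE 0.11, 95% CI 0.84 to 1.39, limma adjusted p = 7.46e-04), the clearest change of the 5 genes in that line. It was called in Caco-2 under all 19 alternatives tried, with changes of 0.78 to 1.20. In HUG1N it fell by 0.37 (means 10.54 ± 0.14 and 10.16 ± 0.15, SD, n = 2; SE 0.11, 95% CI -0.65 to -0.10, limma adjusted p = 0.0346), and that call was lost in 8 of 19 alternatives. They include the fits without HUG1N control replicate 2 or shRNA replicate 2 (change -0.27 in both, limma adjusted p = 0.153 and 0.147), and without Caco-2 shRNA replicate 1 or 2 (limma adjusted p = 0.0574 in both).

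The other VDR probe sets repeated the Caco-2 rise and split in HUG1N. The probe set 204255_s_at read 8.69 and 8.87, then 9.76 and 9.69 in Caco-2 control and shRNA arrays, and 9.47 and 9.45, then 9.63 and 9.41 in those of HUG1N, where the groups overlap. Its change was 0.94 in Caco-2 (SE 0.10, limma adjusted p = 0.00119) and 0.06 in HUG1N (SE 0.10, limma adjusted p = 0.66). The dim probe set 204253_s_at read 4.30 and 3.75, then 5.17 and 5.01 in Caco-2, and 5.02 and 5.11, then 4.13 and 4.07 in HUG1N. It changed by 1.07 in Caco-2 (limma adjusted p = 0.00615) and by -0.97 in HUG1N (limma adjusted p = 0.00647). The fourth, 213692_s_at, lay between 2.08 and 2.11. For 3 of 3 tested probe sets the change was lower in HUG1N than in Caco-2: the differences were -1.49, -0.88 and -2.03 (limma adjusted p = 0.00127, 0.00505 and 0.00199 over probe sets).

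**Figure D2:**
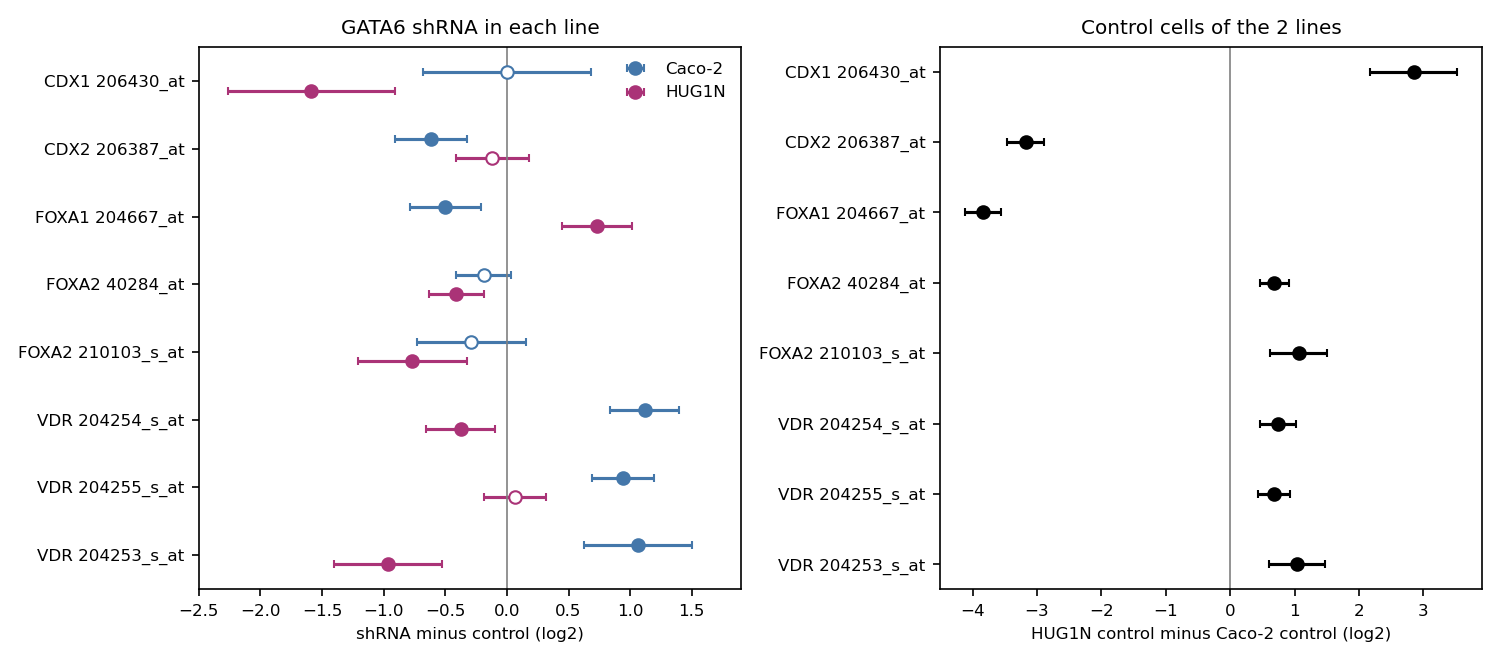
Change with the shRNA in each line (left, log2, Caco-2 blue and HUG1N purple) and difference between control cells (right, log2, HUG1N minus Caco-2) for the 8 tested probe sets; points are limma estimates with 95% confidence intervals from the fit over 12758 probe sets, filled where the adjusted p is under 0.05 and open otherwise. FOXA1 and VDR lie on opposite sides of 0 in the 2 lines, except VDR 204255_s_at, which is at 0.06 in HUG1N.

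Over the 8 tested probe sets, 5 were called in Caco-2 (3 higher and 2 lower), where 35.1% of all probe sets were, and 6 in HUG1N (1 higher and 5 lower), where 46.6% were. The change differed between the lines for 5 of the 8, against 42.4% of all probe sets, and all 8 differed between the control groups, against 76.0%. FOXA2 and VDR have several of the 8, and those higher in Caco-2 are all of VDR, so these counts repeat genes. By gene, the difference in change was called for 3 of 5 (1 higher and 2 lower in HUG1N than in Caco-2), against 44.9% of all genes (22.2% higher and 22.7% lower). The 3 were FOXA1, VDR (-1.49, SE 0.16, 95% CI -1.88 to -1.10, limma adjusted p = 0.00103) and CDX1 (-1.59, limma adjusted p = 0.019). The CDX1 difference rests on Caco-2 arrays at the probe set's lowest value, and it was lost in 7 of 18 alternatives. They were no filter on low values (limma adjusted p = 0.075), the replicate block, and the fits without any 1 of the 4 Caco-2 arrays or without HUG1N control replicate 2. Control cells of the lines differed in all 5 genes (3 higher and 2 lower in HUG1N), against 78.4% of all genes (37.1% higher and 41.3% lower). CDX2, under log2 4 in all HUG1N arrays, passed the filter through Caco-2, which fixed its direction here. VDR was 1.68-fold higher in HUG1N controls (log2 difference 0.75, SE 0.11, limma adjusted p = 9.62e-04).

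Target genes listed for these factors are given as counts. The lists were chosen with earlier results of these data known and share genes. Of 12 tested CDX target genes, 6 fell and 0 rose in Caco-2 (median change -0.41), where 19.2% of all genes fell and 19.5% rose. Those that fell include GUCY2C, the guanylin receptor (-2.58, SE 0.12, limma adjusted p = 3.31e-05), TFF3, a goblet cell trefoil peptide (-1.47, SE 0.08, limma adjusted p = 6.84e-05), and CDH17, liver-intestine cadherin (-0.74, SE 0.08, limma adjusted p = 7.55e-04). In HUG1N 5 rose and 2 fell, beside 24.7% and 23.9% of all genes, and 3 of the 12 had no array over log2 4. KRT20, an intestinal keratin, rose by 4.23 (SE 0.41, limma adjusted p = 5.41e-04), with 1 of 2 control arrays over log2 4. TFF3 rose by 1.29 (SE 0.08, limma adjusted p = 1.34e-04) and GUCY2C fell by 1.52 (SE 0.12, limma adjusted p = 2.41e-04). Between controls, 8 of 12 were lower in HUG1N and 2 higher (41.3% and 37.1% of all genes), with the brush border enzyme SI at least 90.2-fold higher in Caco-2 and VIL1, the microvillus protein villin, lower in HUG1N by -5.01 (SE 0.11). The 3 with no HUG1N array over log2 4, SI among them, passed the filter through Caco-2, which fixed their direction here.

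Of 18 tested HNF4 target genes, 11 fell and 1 rose in Caco-2 (median -0.77), beside 19.2% and 19.5% of all genes. Of the 11, TF passed the filter through the Caco-2 control arrays alone, which fixed its direction with the shRNA. The apolipoprotein genes APOA1 (-1.62, SE 0.06, limma adjusted p = 1.56e-05), APOA2 (-1.07, SE 0.07, limma adjusted p = 1.15e-04) and APOH (-2.35, SE 0.16, limma adjusted p = 1.49e-04) were among those that fell. In HUG1N 13 of the 18 had no array over log2 4, having passed the filter through Caco-2, so no median is given. APOM rose there by 0.97 (SE 0.26, limma adjusted p = 0.0234; 24.7% of all genes rose and 23.9% fell). FABP1, a fatty acid binding protein, and F10, coagulation factor X, were also called, lower, but each had 1 of 2 control arrays and 0 of 2 shRNA arrays over log2 4. FABP1 was at least 1.22-fold lower (limma adjusted p = 0.00177), and for F10 no fold can be given (limma adjusted p = 0.0412). Between controls 15 of 18 were lower in HUG1N and 1 higher (41.3% and 37.1% of all genes), with APOA1 at least 2140-fold and APOA2 at least 1270-fold higher in Caco-2. For the 13 that passed the filter through Caco-2, and for 1 that passed through HUG1N, the filter fixed the direction between the lines. These counts are therefore not a result about the list.

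Of 13 tested FOXA target genes, 6 fell and 2 rose in Caco-2 (median -0.31), beside 19.2% and 19.5% of all genes. TFF1, a gastric trefoil peptide, fell by 3.20 (SE 0.11, limma adjusted p = 1.31e-05), ALB, serum albumin, by 2.94 (SE 0.07, limma adjusted p = 2.81e-06), and GATA3 rose by 1.89 (SE 0.15, limma adjusted p = 3.29e-04). In HUG1N 7 of 13 had no array over log2 4, and 2 rose and 1 fell, beside 24.7% and 23.9% of all genes. AGR2, a protein disulfide isomerase of mucous cells, rose by 1.87 (SE 0.08, limma adjusted p = 5.22e-05) and the gastric mucin MUC5AC by 0.57 (SE 0.13, limma adjusted p = 0.0114), and TFF1 fell by 0.59 (SE 0.11, limma adjusted p = 0.00677). Between controls 9 were lower in HUG1N and 4 higher (41.3% and 37.1% of all genes), ALB being at least 1040-fold and APOB at least 778-fold higher in Caco-2. The 7 with no HUG1N array over log2 4 passed the filter through Caco-2, and 2 with no Caco-2 array over it through HUG1N. The filter fixed their direction between the lines, so these counts are not a result about the list.

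Of 10 tested vitamin D targets and metabolic genes, 1 rose and 1 fell in Caco-2 (median -0.27), beside 19.5% and 19.2% of all genes, and in each line 3 had no array over log2 4. GADD45A, a stress response gene, rose by 0.28 (SE 0.07, limma adjusted p = 0.0278), and CYP2R1, a vitamin D 25-hydroxylase, was at least 1.35-fold lower. CYP2R1 passed the filter through the Caco-2 control arrays alone, which fixed its direction with the shRNA, so its call is not a result. In HUG1N 2 fell and 1 rose, beside 23.9% and 24.7% of all genes. CDKN1A, the cell cycle inhibitor p21 (-1.80, SE 0.12, limma adjusted p = 1.85e-04) and GADD45A (-1.02, SE 0.07, limma adjusted p = 2.07e-04) fell, and ATP2B1, a calcium pump, rose by 0.36 (SE 0.12, limma adjusted p = 0.0485). CYP24A1, the vitamin D catabolic enzyme widely used as a readout of VDR activity, was at 2.08 to 2.10 in all arrays. Between controls 4 of 10 were higher in HUG1N and 5 lower (37.1% and 41.3% of all genes), with CDKN1A higher by 4.85 and IGFBP3 at least 568-fold higher. In each line the 3 with no array over log2 4 passed the filter through the other line, which fixed their direction here.

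**Figure D3:**
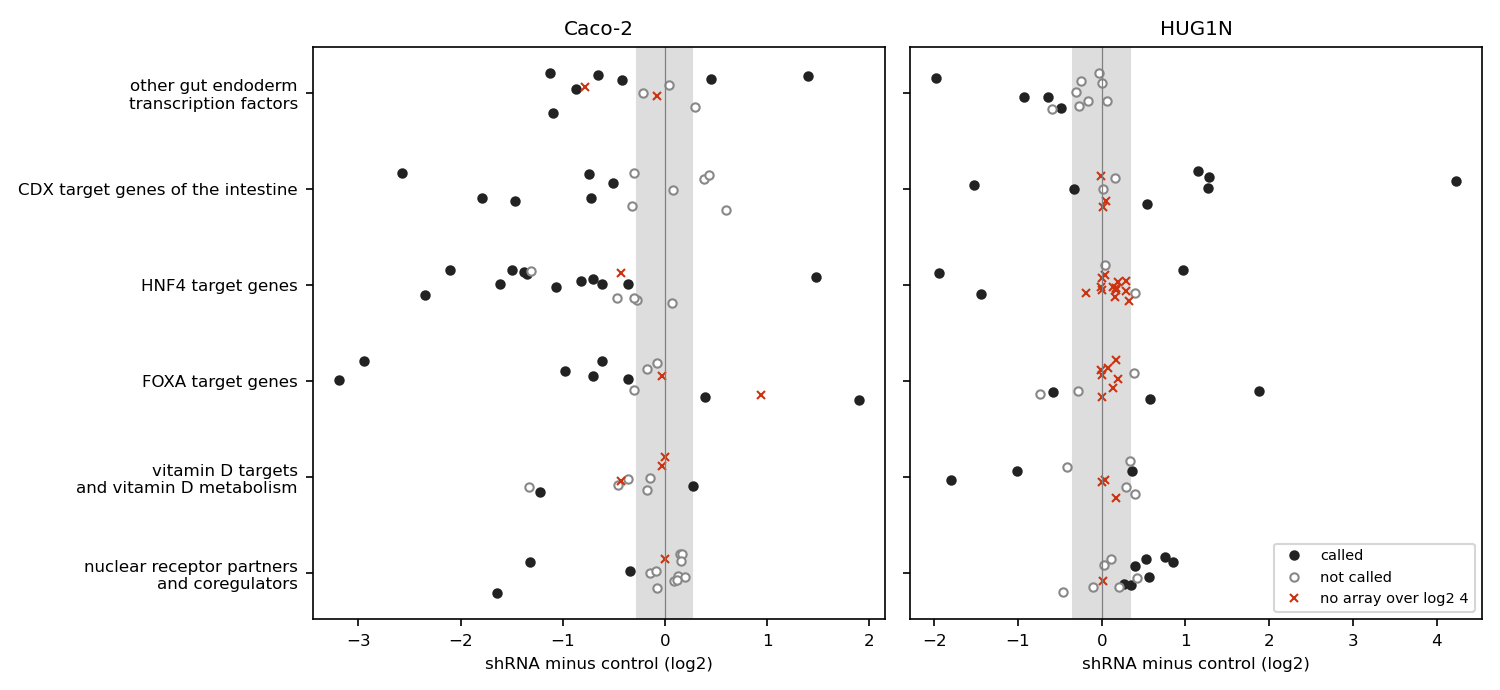
Change with the shRNA (log2, horizontal axis) of each tested gene of 6 lists in Caco-2 (left) and HUG1N (right); filled points were called, open points were not, red crosses are genes with no array over log2 4 in the groups compared, and the grey band spans the quartiles of all tested genes. In HUG1N crosses make up 13 of 18 HNF4 and 7 of 13 FOXA target genes, and KRT20, at 4.23, lies farthest to the right.

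Of 14 tested receptor partners and coregulators, 0 rose and 3 fell in Caco-2 (median 0.0442), beside 19.5% and 19.2% of all genes. They were NR0B2, the repressor SHP (-1.64, SE 0.21, limma adjusted p = 0.0018, with 1 of 2 shRNA arrays over log2 4), NR2F1 (at least 1.3-fold lower) and NR2F6 (-0.34, SE 0.11, limma adjusted p = 0.0497). NR2F1 passed the filter through the Caco-2 control arrays alone, which fixed its direction with the shRNA. In HUG1N 7 rose and 0 fell (median 0.31), beside 24.7% and 23.9% of all genes, with RXRA, the partner of VDR, at 0.75 (SE 0.12, limma adjusted p = 0.0033), NCOA2 at 0.85 (SE 0.13, limma adjusted p = 0.00305) and NRIP1 at 0.56 (SE 0.11, limma adjusted p = 0.00757). RXRA in Caco-2 was -0.14 (limma adjusted p = 0.397), and its change differed between the lines by 0.90 (SE 0.17, limma adjusted p = 0.00743). Between controls 4 were higher in HUG1N and 6 lower (37.1% and 41.3% of all genes), with RXRA at -1.86 and NCOA1 at -1.78. NR2F1, with no HUG1N array over log2 4, and PPARGC1A, with no Caco-2 array over it, passed the filter through the other line, which fixed their direction here.

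Among 12 tested other transcription factors of gut endoderm, 6 fell and 2 rose in Caco-2 (median -0.32), beside 19.2% and 19.5% of all genes. Of those that fell, 1 (GATA4) had no array over log2 4, and 1 was GATA6, the targeted gene itself. In HUG1N 4 fell and 0 rose (median -0.29), beside 23.9% and 24.7%. ELF3, an epithelial ETS factor, rose by 1.40 in Caco-2 (SE 0.10, limma adjusted p = 1.70e-04) and fell by 0.93 in HUG1N (SE 0.10, limma adjusted p = 6.70e-04). SOX9, a progenitor factor, fell by 1.12 in Caco-2 (SE 0.15, limma adjusted p = 0.00237). In HUG1N CEBPB fell by 0.64 (SE 0.07, limma adjusted p = 6.70e-04), and NR5A2, a nuclear receptor of the gut and liver, was at least 3.03-fold lower, with no shRNA array over log2 4. Between controls 6 were higher in HUG1N and 3 lower (37.1% and 41.3% of all genes), with EHF at least 58.3-fold higher and KLF4 higher by 4.08 (SE 0.10). EHF and GATA4, with no Caco-2 array over log2 4, passed the filter through HUG1N, which fixed their direction here.

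The genes whose centred values over the 8 arrays lay nearest to each factor, by root mean square difference on the log2 scale, were CALCOCO1 (0.198) and PHLDA3 (0.216) for CDX1, AGMAT (0.126) and CASP6 (0.15) for CDX2, COMMD8 (0.105) and TMX4 (0.173) for FOXA1, and FAR2 (0.11) and CDC42SE1 (0.117) for VDR. In Caco-2 the control and shRNA means of CALCOCO1 (2.10 and 2.13) and PHLDA3 (3.57 and 3.54) lay under log2 4. CDX1 was at its probe set's lowest value there, so these matches rest in part on background signal. The group means of FOXA2 spanned 0.873, under the 1 log2 unit set for this search. For CDX1, CDX2 and FOXA1 the span of 2.85, 3.30 and 3.84 lies between groups of different lines.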

How the data were processed

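Total RNA of 8 samples was labelled with a 3′ IVT kit and hybridised to Affymetrix arrays, per the labels' protocols. The deposited values are log2 intensities made with GCRMA, per the submitters' processing notes, in which no version, build or further step is named. They were used as deposited. Of 22277 probe sets, 19070 had 1 gene symbol in the platform annotation, 1043 several and 2164 none, and 19058 were matched by Entrez ID to RefSeq GRCh38.p14. Where a gene had several probe sets, the brightest on average stood for it. Genes over log2 4 in at least 2 arrays were tested with limma 3.58.1 in R 4.3.3 (4 group means, all 8 arrays, 4 residual degrees of freedom, empirical Bayes), with Benjamini-Hochberg adjustment over all 7696 genes and a threshold of 0.05. A second fit covered 12758 probe sets. A fold against a group with no array over log2 4 is a lower bound, set at log2 4 or at the probe set's own lowest value. With 2 arrays a group, an exact permutation test of 1 gene cannot go below p = 0.333, so none was run. The number of arrays limits the precision. The genes and lists were chosen with earlier results of these data known. Named list genes are up to 3 called members per list and line by smallest p, and 2 between controls. Like-pattern genes are the 2 nearest to each tested gene whose group means span at least 1 log2 unit. Alternatives covered normalization, filter, floor, variance model, probe set choice, replicate block, fits by line and leaving out each array.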

Additional observations from a re-analysis of the deposited data

Results flagged for a closer look

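The change with the shRNA in FOXA1 and in VDR differed between the lines by a test of the difference itself, a test called for 44.9% of all genes. Both values lie within the range from -1.61 to 1.35 that holds the middle 90% of all genes. CDX1 was called too (-1.59), with Caco-2 at its probe set's lowest value. For FOXA1 the difference, HUG1N minus Caco-2, was 1.2292 on the log2 scale (limma adjusted p = 0.00216), a fall in Caco-2 against a rise in HUG1N, called under all 18 alternatives tried (1.09 to 1.37). For VDR it was -1.4931 (limma adjusted p = 0.00103), a rise in Caco-2 against a fall in HUG1N, also called under all 18 (-1.60 to -1.10). The fall of VDR in HUG1N depends on the probe set, as 204255_s_at changed by 0.06 there.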

How the results depend on the processing

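No result reversed direction. Of 370 values of single genes under an alternative, 334 stayed on the same side of the threshold, with the same direction where called. Another 28 were no longer called and 8 became called. Requiring a change of at least 1 log2 unit left 742 genes called in Caco-2, 903 in HUG1N, 1404 for the difference between lines and 3534 between controls, and 1, 1 and 3 of the 5 genes in Caco-2, in HUG1N and between controls. Testing all probe sets gave 4483, 5947, 5414 and 9696 calls in the same order. With HUG1N fitted alone, 2 of the 5 genes were called. Leaving out 1 array gave 1895 to 2974 called genes and 1 to 3 of the 5 genes in Caco-2. Without Caco-2 control replicate 1 the counts were 1985 and 1, and without Caco-2 control replicate 2 the first was 1895. The CDX2 difference between the lines, 0.50 (limma adjusted p = 0.0533), was called in 8 of 18 alternatives and rests on HUG1N arrays under log2 4. Deviations of same-numbered arrays had correlations of 0.0662 in Caco-2 and -0.0161 in HUG1N. The labels do not say whether the numbers pair the arrays, and 2 arrays a group cannot settle it. With the replicate block 2485, 3391, 2999 and 5925 genes were called, and limma adjusted p was 0.0795 for VDR in HUG1N, 0.0567 for the CDX1 difference and 0.0466 for the CDX2 difference. HNF4G, CDX1 in Caco-2 and CDX2 in HUG1N are limited by low signal.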

Other observations

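A probe set's lowest value can lie well above the array floor. At least 4 arrays shared a probe set's lowest value, to within 1e-06, for 7866 probe sets, of which 7500 had it under log2 2.2 and 42 over log2 4, that of CDX1 among the latter. A level over log2 4 therefore does not by itself show that a gene was measured.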
